A study of Mus musculus with 8 samples.

Results

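The transcription factor genes Lef1, Tcf7, Tcf7l1 and Tcf7l2 and the Wnt target gene Axin2 were followed in single nuclei of the adult mouse midbrain. These 5 genes were taken by name from a table of 23481 genes, and all 5 were present. They were selected on the measured levels of Lef1 in the mutant and wt nuclei of these same data, so the levels by genotype are given as a description with no test. The nuclei came from mice of the DatCreEed strain at 8 months of age, in which Cre is driven by the dopamine transporter gene Slc6a3 and Eed encodes a core subunit of Polycomb repressive complex 2 (PRC2). The mutant library was made from 1 pool of 3 mice (2 females and 1 male) and the wt library from 1 pool of 3 mice of the same makeup, and the alleles that the wt mice carried are not given in the sources used here. Each library was sequenced on 4 flow cell lanes, which the labels list as 8 samples and which are merged in the table.

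Because each genotype was 1 library, genotype and batch cannot be told apart, and no test between genotypes was possible. The intervals below are 95% exact intervals for counting error only: Poisson for a level, binomial for a share, and binomial for the ratio of 2 summed counts. The mutant library held 3968 nuclei and 88201326 UMIs (unique molecular identifiers, each standing for 1 captured RNA tag), with a median of 17860 UMIs per nucleus. The wt library held 1772 nuclei and 46540890 UMIs, with a median of 21532.5. There were 4 cell barcodes found in both libraries. Eed itself had 41.3 CPM (UMIs per 1000000 UMIs of the class; 39.8 to 42.8) in mutant dopamine nuclei and 21.4 CPM (19.96 to 22.9) in wt dopamine nuclei. The tags come from the 3' end of transcripts and the deleted part of Eed is not given in the labels, so this level checks nothing about the deletion.

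Lef1 and the 3 Tcf factors are DNA-binding proteins of the Wnt pathway. Without a Wnt signal they sit on target genes with corepressors of the Tle family, and beta-catenin (Ctnnb1), once it escapes the destruction complex built on Axin1 and Apc, joins them and turns the targets on. Axin2 is a feedback inhibitor that is itself a widely used readout of this signal. Wnt signalling takes part in forming midbrain dopamine neurons in the embryo, and Tcf7l2 marks thalamic and some midbrain neurons as well as glia in the adult. Lef1 is also known in endothelial cells of the brain, where Wnt signalling maintains the blood-brain barrier.

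Promoter sequences are shown for Lef1, the member with the largest ratio between the genotypes in dopamine nuclei, and for Axin2, the readout gene. Lef1 lies on chromosome 3 from 131110471 to 131224356 on the plus strand of mm10, and Axin2 on chromosome 11 from 108920349 to 108950783 on the plus strand (GENCODE M21). The windows run from 250 bases before to 50 bases after a RefSeq start site in GRCm38.p6, the assembly that mm10 names, 5' to 3', and capitals mark CpG dinucleotides. The Lef1 window is chr3:131110047-131110346 and the Axin2 window is chr11:108920099-108920398, both on the plus strand.
Lef1: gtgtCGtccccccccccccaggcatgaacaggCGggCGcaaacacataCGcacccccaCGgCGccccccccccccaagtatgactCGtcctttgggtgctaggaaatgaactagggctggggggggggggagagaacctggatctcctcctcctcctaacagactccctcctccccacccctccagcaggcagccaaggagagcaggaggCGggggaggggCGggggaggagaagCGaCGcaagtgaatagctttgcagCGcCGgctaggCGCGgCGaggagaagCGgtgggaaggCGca
Axin2: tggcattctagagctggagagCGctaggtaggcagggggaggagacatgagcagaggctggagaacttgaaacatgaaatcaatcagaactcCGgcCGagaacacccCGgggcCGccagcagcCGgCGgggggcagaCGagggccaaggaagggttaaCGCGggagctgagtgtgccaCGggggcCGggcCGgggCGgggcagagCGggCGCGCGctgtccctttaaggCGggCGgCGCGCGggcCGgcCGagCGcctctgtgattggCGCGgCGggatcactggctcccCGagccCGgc
The Lef1 window held 18 CpG dinucleotides and the Axin2 window 31, against a median of 7 over the 32851 promoters of the same length. Of the 10 RefSeq promoter windows of the 5 members, 4 belonged to Lef1, with 18, 21, 8 and 5 CpG dinucleotides. Tcf7 had 45 and 17, Tcf7l1 34, and Tcf7l2 34 and 7. The letters of the Lef1 and Tcf binding motif, ATCAAAG or TTCAAAG, and their reverse complements CTTTGAT and CTTTGAA, were found in 8.65% of all promoters of this length and in none of the 10 windows. The 3' tags cannot tell which Lef1 start site a transcript came from.

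Nuclei were split by the summed level of Th, Slc6a3, Slc18a2 and Ddc, which encode the enzymes of dopamine synthesis and the dopamine and vesicular transporters. Nuclei with at least 5 UMIs per 10000 from these 4 genes are called dopamine nuclei here, and the rest other nuclei. There were 2875 dopamine nuclei of 3968 (72.5%, 71.0% to 73.8%) in the mutant library and 1320 of 1772 (74.5%, 72.4% to 76.5%) in the wt library. Of 16 further dopamine neuron markers, 15 were at least 1.5-fold higher in dopamine than in other nuclei in each library. The exception in both libraries was Lmx1a, with a ratio of 1.01 in mutant and 1.23 in wt nuclei. The median summed level of the 4 genes was 13.7 UMIs per 10000 in mutant dopamine nuclei and 24.3 in wt dopamine nuclei, so the split itself uses genes that differed between the genotypes. Just outside it, with 4 to 5 UMIs per 10000, lay 107 mutant and 41 wt nuclei, and just inside it, with 5 to 6, lay 116 mutant and 37 wt nuclei. A nucleus may also hold tags of other cells: 94 mutant dopamine nuclei (3.27%) and 76 wt dopamine nuclei (5.76%) were over a marker gate for oligodendrocytes, their precursors, astrocytes, microglia or vascular cells.

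In dopamine nuclei Lef1 was the member that separated the libraries. It had 2278 UMIs in mutant dopamine nuclei, a level of 33.1 CPM (31.8 to 34.5), against 136 UMIs and 3.45 CPM (2.90 to 4.08) in wt dopamine nuclei, a ratio of 9.60 (8.07 to 11.5). With each nucleus weighted equally, which gives shallow nuclei more weight, the ratio was 4.21. Of the 5 members, 1 was at least 1.5-fold higher in mutant dopamine nuclei with a pseudocount of 5 CPM, and 0 were lower. Over 16324 genes with at least 50 UMIs, 1.99% were higher and 1.46% lower by the same measure, and since Lef1 was chosen for this difference nothing is read from the count. In such sums, fewer nuclei with a transcript and less transcript per nucleus cannot be told apart, so shares of nuclei are given beside the levels.

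Summed over all dopamine nuclei, the other Tcf factors and Axin2 had ratios between 0.831 and 1.17. Along bins of the dopamine gene level above the limit the ratios varied more, as given further on. They ran from 0.303 to 0.851 for Tcf7l2, from 0.273 to 1.55 for Tcf7l1 and from 0.587 to 1.07 for Axin2. Tcf7l2 had 11.8 CPM (11.0 to 12.6) in mutant and 13.3 CPM (12.1 to 14.4) in wt dopamine nuclei, a ratio of 0.889 (0.795 to 0.994). Tcf7l1, which acts mostly as a repressor, had 4.26 CPM (3.79 to 4.78) in mutant and 5.13 CPM (4.45 to 5.89) in wt dopamine nuclei, a ratio of 0.831 (0.692 to 0.999). That ratio was 0.540 with nuclei weighted equally and 1.00 with a class limit of 10 UMIs per 10000. Tcf7, best known from T cells, was close to the limit of the data, with 47 UMIs in all mutant and 23 UMIs in all wt dopamine nuclei. Its levels were 0.684 CPM in mutant and 0.584 CPM in wt dopamine nuclei, and the ratio of 1.17 had an interval of 0.697 to 2.02. Axin2 had 8.29 CPM (7.62 to 9.001) in mutant and 9.34 CPM (8.41 to 10.3) in wt dopamine nuclei, a ratio of 0.887 (0.777 to 1.01). The Axin2 readout stood slightly lower in the library with the higher Lef1, and the interval includes a ratio of 1.

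In other nuclei the pattern was different. Lef1 had 33.3 CPM (30.7 to 35.9) in mutant and 12.7 CPM (10.2 to 15.6) in wt other nuclei, a ratio of 2.62 (2.10 to 3.29). Tcf7l2 was much higher there than in dopamine nuclei, with 90.1 CPM in mutant and 74.6 CPM in wt other nuclei, a ratio of 1.21 (1.10 to 1.33). This direction turned with a class limit of 10 UMIs per 10000 (0.907) and with nuclei weighted equally (0.747). Tcf7l1 had 6.48 CPM in mutant and 17.3 CPM in wt other nuclei, a ratio of 0.374 (0.289 to 0.483). Axin2 had 10.7 CPM in mutant and 15.0 CPM in wt other nuclei, a ratio of 0.718 (0.566 to 0.916). Tcf7 had 0.565 CPM from 11 UMIs in mutant and 2.24 CPM from 16 UMIs in wt other nuclei, and 11 of those 16 UMIs lay in 1 nucleus. The share of other nuclei over a glial or vascular gate was 19.2% in the mutant and 33.8% in the wt library, and the part of this difference in the levels of other nuclei is shown by leaving those nuclei out. Without them the ratio in other nuclei was 3.31 for Lef1, 1.77 for Tcf7l2, 0.432 for Tcf7l1 and 0.729 for Axin2.

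Leaving the same nuclei out of the dopamine class kept Lef1 at 32.6 CPM in mutant and lowered it to 2.81 CPM in wt dopamine nuclei, a ratio of 11.6 (9.56 to 14.3). Tcf7l1 was then at 3.48 CPM in mutant and 3.55 CPM in wt dopamine nuclei (ratio 0.979, 0.788 to 1.22), and Tcf7l2 at 9.97 CPM in mutant and 10.6 CPM in wt dopamine nuclei (ratio 0.938, 0.827 to 1.06). Axin2 stayed at a ratio of 0.878 (0.767 to 1.01).

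**Figure D1:**
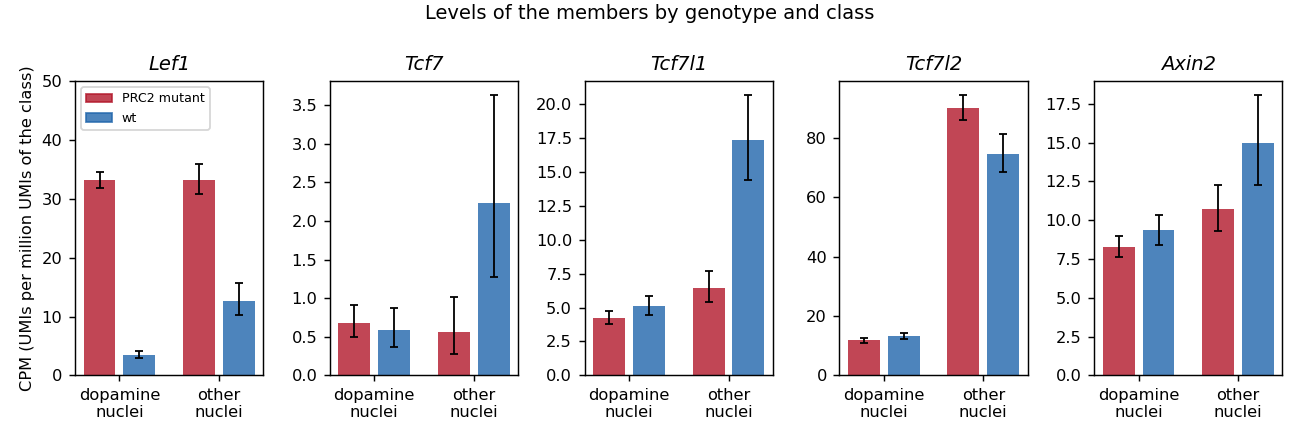
Levels of the 5 members in CPM (UMIs per 1000000 UMIs of the class), with mutant to the left of wt in each class; bars are the summed level of 1 library and error bars the 95% exact Poisson interval for counting error. Lef1 in dopamine nuclei stands at 33.1 CPM in the mutant and 3.45 CPM in the wt library, while Axin2 stands at 8.29 and 9.34 CPM; each panel has its own scale.

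Several annotated genes overlap the members, and whether counting used strand is not stated. Gm43352, on the strand opposite Lef1, had 18 UMIs in mutant and 0 UMIs in wt dopamine nuclei. Gm26551, on the same strand as Tcf7, had 15.3 CPM in mutant and 16.2 CPM in wt dopamine nuclei, far above Tcf7 itself in UMIs, so the Tcf7 level is uncertain. The overlapping genes of Tcf7l1 and Axin2 had between 2 and 8 UMIs in either library.

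The share of nuclei with a tag was compared after thinning every nucleus to 2000 UMIs, which left out 27 mutant and 35 wt dopamine nuclei. Lef1 was then found in 154 of 2848 mutant dopamine nuclei (5.41%, 4.61% to 6.30%) and in 6 of 1285 wt dopamine nuclei (0.467%, 0.172% to 1.01%). Without thinning the shares were 28.5% in mutant and 2.20% in wt dopamine nuclei. Axin2 was found after thinning in 1.65% (1.22% to 2.19%) of mutant and 2.18% (1.45% to 3.13%) of wt dopamine nuclei, and without thinning in 16.3% of mutant and 22.0% of wt dopamine nuclei. Tcf7l2 was found after thinning in 1.65% of mutant and 1.95% of wt dopamine nuclei, and Tcf7l1 in 0.772% of mutant and 0.778% of wt dopamine nuclei. Tcf7 was found in 0.211% of mutant and 0.156% of wt dopamine nuclei.

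Shares were set beside nuclei of other types, with and without thinning. In nuclei of the other class over the oligodendrocyte gate, a type that should lack Lef1, tags were found without thinning in 2 of 68 mutant nuclei (2.94%) and 4 of 61 wt nuclei (6.56%), at median depths of 3799 UMIs in mutant and 4319 UMIs in wt nuclei. After thinning these shares were 3.64% of 55 mutant and 7.55% of 53 wt nuclei, with intervals of 0.443% to 12.5% in the mutant and 2.09% to 18.2% in the wt library. These tags were not thinly spread: the 4 wt nuclei held 27 Lef1 UMIs, and these nuclei were several times shallower than the dopamine nuclei. The share of wt dopamine nuclei with Lef1 lay below them, so no expression of Lef1 is read from that share. The thinned share in mutant dopamine nuclei lay inside these wide intervals, so it was set beside a deeper neuronal type. Nuclei over the GABA gate, at median depths of 15278 UMIs in mutant and 17182 UMIs in wt nuclei, had a Lef1 tag in 7 of 159 mutant nuclei (4.40%, 1.79% to 8.86%) and 1 of 50 wt nuclei (2%, 0.0506% to 10.6%) without thinning. The unthinned mutant dopamine share of 28.5% (26.8% to 30.2%), at a median of 19023 UMIs, lay above both. Thinned to 2000 UMIs, Lef1 was in 1 of 155 mutant GABA-gated nuclei (0.645%, 0.0163% to 3.54%). It was in 0 of 48 wt GABA-gated nuclei, which allows up to 7.40% by the exact interval. The mutant dopamine share at that thinning, 5.41%, lay above the mutant GABA-gated interval and inside the wt one.

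Lef1 was found in many mutant dopamine nuclei and in few wt ones. In the mutant library 819 of 2875 dopamine nuclei held it, 325 with 1 UMI, 197 with 2 UMIs and 297 with 3 or more, and the top 1% of nuclei held 16.6% of the UMIs. In the wt library 29 of 1320 dopamine nuclei held it, 11 with 1 UMI, 8 with 2 UMIs and 10 with 3 or more, and the top 13 nuclei held 84.6% of the UMIs. These 13 are a large part of the 29 nuclei with Lef1, so the 2 top shares cannot be set against each other. Of the wt nuclei with Lef1, 7 of 29 (24.1%) were over a glial or vascular gate, 6 of them over the endothelial and pericyte gate, while of the mutant nuclei with Lef1 24 of 819 (2.93%) were over a gate. Of the 10 wt nuclei with 3 or more Lef1 UMIs, 5 were over the endothelial and pericyte gate and 7 held Tcf7l2. Axin2, in contrast, was thinly spread in both libraries: at most 4 UMIs in a nucleus, and the top 1% of nuclei held 13.9% of its UMIs in mutant and 11.1% in wt dopamine nuclei.

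Among other nuclei, Lef1 was highest over the vascular gate and Tcf7l1 over the astrocyte and vascular gates. In nuclei over the endothelial and pericyte gate Lef1 reached 1109 CPM in mutant nuclei, where 21 of 31 held it, and 510 CPM in wt nuclei, where 5 of 6 held it. Tcf7l2 was at 354 CPM in astrocyte-gated nuclei of either library, in 49 of 69 mutant and 41 of 61 wt nuclei. Tcf7l1 was at 141 CPM in mutant and 203 CPM in wt astrocyte-gated nuclei, in 34 of 69 mutant and 40 of 61 wt nuclei. Axin2 was found in 2 of 69 mutant and 4 of 61 wt astrocyte-gated nuclei. Of other nuclei with an Axin2 tag, 131 of 172 mutant and 65 of 83 wt nuclei were over no gate. Nuclei over no gate held 14896845 of the 19458348 UMIs of mutant other nuclei and 5191631 of the 7156906 UMIs of wt other nuclei. No preference of Axin2 for them is therefore read. Lef1 was also found over other gates, in few nuclei. In astrocyte-gated nuclei it had 87.4 CPM in mutant and 5.21 CPM in wt nuclei. These were 39 UMIs in 4 of 69 mutant and 2 UMIs in 2 of 61 wt nuclei. In oligodendrocyte-gated nuclei it had 15.8 CPM in mutant and 54.0 CPM in wt nuclei. These were 9 UMIs in 2 of 68 mutant and 27 UMIs in 4 of 61 wt nuclei. Over the glutamate gate Lef1 had 0 UMIs in 20 mutant nuclei and 7 UMIs in 6 wt nuclei. No difference between the genotypes is read from so few nuclei. Most Lef1 UMIs of mutant other nuclei, 512 of 647, lay in nuclei over no gate, which also held most UMIs of all genes, as given above. In these Lef1 had 34.4 CPM from 71 of 707 mutant nuclei and 8.48 CPM from 9 of 244 wt nuclei, and Tcf7l2 had 93.8 CPM in mutant and 45.1 CPM in wt nuclei.

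The levels were then followed along the summed level of the 4 dopamine genes, from nuclei with under 1 UMI per 10000 to nuclei with 20 or more. Lef1 in the mutant library had 48.6 CPM at the lowest level, 17.5 CPM at 1 to 2, 15.2 CPM at 2 to 5, 31.3 CPM at 5 to 10, 34.9 CPM at 10 to 20 and 28.7 CPM at 20 or more. In the wt library it had 20.2, 13.7, 3.78, 5.61, 10.7 and 0.802 CPM over the same levels. Mutant nuclei with no or many dopamine tags thus both held Lef1, and wt nuclei with the most dopamine tags held almost none. The ratio was 35.7 (23.1 to 58.1) in nuclei at 20 or more, 3.28 (2.67 to 4.06) at 10 to 20 and 5.59 (3.36 to 10.0) at 5 to 10.

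At the class limit itself, Lef1 in the mutant library had 15.7 CPM (10.9 to 22.0) from 34 UMIs just outside and 21.4 CPM (16.2 to 27.7) from 58 UMIs just inside. In the wt library it had 2.73 CPM (0.330 to 9.85) from 2 UMIs just outside and 4.64 CPM (0.956 to 13.6) from 3 UMIs just inside. Tcf7l2 was far lower at the highest level of the dopamine genes than at the lowest, with 141 CPM at the lowest and 2.17 CPM at the highest in the mutant library and 117 CPM at the lowest and 7.15 CPM at the highest in the wt library. The dopamine genes themselves differed between the genotypes, so 1 bin need not hold like nuclei in both libraries. Within bins above the limit Tcf7l2 was lower in mutant than in wt nuclei, with ratios of 0.851 (0.654 to 1.12) at 5 to 10, 0.337 (0.287 to 0.395) at 10 to 20 and 0.303 (0.176 to 0.492) at 20 or more. Tcf7l1 had ratios of 0.273 at 5 to 10, 0.569 at 10 to 20 and 1.55 (1.06 to 2.23) at 20 or more, so its direction differed along the range. Axin2 had ratios of 0.587 (0.406 to 0.869) at 5 to 10, 0.753 (0.603 to 0.949) at 10 to 20 and 1.07 (0.810 to 1.39) at 20 or more.

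**Figure D2:**
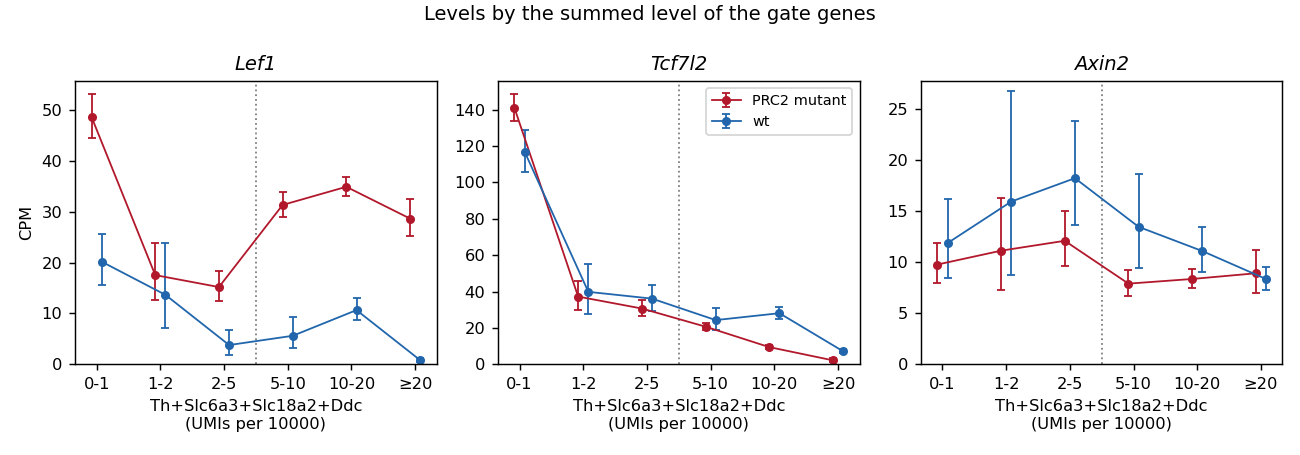
CPM of Lef1, Tcf7l2 and Axin2 in mutant and wt nuclei in 6 bins of the summed Th, Slc6a3, Slc18a2 and Ddc level (UMIs per 10000); bars are 95% exact Poisson intervals and the dotted line marks the class limit of 5. Lef1 in the highest bin is at 28.7 CPM in mutant and 0.802 CPM in wt nuclei, whereas Axin2 is at 8.91 CPM in mutant and 8.35 CPM in wt nuclei.

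To compare nuclei with and without Lef1, mutant dopamine nuclei of at least 5000 UMIs were thinned to 5000 UMIs and split by a Lef1 tag, and levels were then taken from all their counts. There were 316 nuclei with Lef1 (11.3%) and 2469 without. Their median depths were 24636 UMIs with and 18878 UMIs without Lef1, and the median summed level of the 4 dopamine genes was 13.7 UMIs per 10000 in both. Nuclei of 1 library are not replicates, so the ratios carry counting intervals and no test. Over 15218 genes and with a pseudocount of 5 CPM, 0.25% were past 1.5-fold upwards and 0.966% past it downwards in nuclei with Lef1. The split is imperfect, since nuclei without a tag at this depth still had 18.3 CPM of Lef1 against 129 CPM in nuclei with one.

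In this split of mutant dopamine nuclei, Axin2 was not detectably higher in nuclei with Lef1. It had 66 UMIs and 7.30 CPM in nuclei with Lef1, against 496 UMIs and 8.35 CPM in nuclei without, a ratio of 0.875 (0.666 to 1.13). After thinning, an Axin2 tag was found in 10 of 316 nuclei with Lef1 (3.16%, 1.53% to 5.74%) and in 112 of 2469 without (4.54%, 3.75% to 5.43%). By unthinned Lef1 counts of 0, 1, 2 and 3 or more, Axin2 had 9.25, 7.60, 6.50 and 6.55 CPM, so Axin2 was not higher at higher Lef1 counts. These bins also differ in depth, with medians of 16272.5, 24579, 27331 and 34395 UMIs. Within nuclei of 10000 to 30000 UMIs, split on unthinned counts, the ratio was 0.636 (0.459 to 0.866).

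The other factors were less even. Where 0.25% of all genes were past 1.5-fold upwards and 0.966% downwards, Tcf7l2 was the 1 of the 4 other members past it. It had 20.9 CPM in nuclei with Lef1 and 10.2 CPM in nuclei without, a ratio of 2.04 (1.72 to 2.41). This rested on few nuclei: 32 of the 316 held Tcf7l2, and the top 5 held 87 of the 189 UMIs (46.0%). Tcf7l2 did not follow the Lef1 count, with 9.001, 15.2, 4.75 and 22.1 CPM at 0, 1, 2 and 3 or more Lef1 UMIs. Tcf7l1 had 5.53 CPM in nuclei with Lef1 and 4.07 CPM without (ratio 1.36, 0.981 to 1.85), and Tcf7 had 8 UMIs in nuclei with Lef1 and 38 without (ratio 1.38, 0.558 to 3.01).

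The 4 gate genes differed little in the same split, and the other dopamine genes went both ways. Th had 70.0 CPM in nuclei with Lef1 and 75.3 CPM without, a ratio of 0.930 (0.854 to 1.01). Slc6a3, which encodes the dopamine transporter, had 216 CPM with and 188 CPM without Lef1, a ratio of 1.15 (1.10 to 1.21). Slc18a2 had a ratio of 0.966 (0.927 to 1.01) and Ddc of 1.02 (0.997 to 1.05). The gate genes chose the nuclei, which limits how far their levels can differ here. Of the 4 gate genes and 16 other dopamine genes, 0 were 1.5-fold higher and 0 lower after the pseudocount. In the same split 0.25% of all genes were higher and 0.966% lower. Of the 16, however, 3 had an interval below 1, and all 3 encode transcription factors of dopamine neuron identity. The other identity transcription factors among the 16 had no interval below 1. En1 had 19.6 CPM with and 30.7 CPM without Lef1 (ratio 0.637, 0.543 to 0.743), Lmx1a had 71.1 CPM with and 105 CPM without (ratio 0.678, 0.624 to 0.736), and Pitx3 had 4.31 CPM with and 6.60 CPM without (ratio 0.654, 0.458 to 0.910). Lmx1a was also the marker near even between dopamine and other nuclei of the mutant library, as given above. Another 4 of the 16 had an interval above 1, led by Drd2, the D2 dopamine receptor (ratio 1.31, 1.26 to 1.37), and Kcnj6, a potassium channel subunit (ratio 1.28, 1.24 to 1.31). The remaining 9 had intervals that include 1. Such interval counts are not given for all genes, so these are a description only. By genotype, 3 of the 4 gate genes and 5 of the 16 others were at least 1.5-fold lower in mutant than in wt dopamine nuclei, and 0 were higher. Over all genes 1.46% were lower and 1.99% higher by that measure.

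Subtype genes did differ. Midbrain dopamine neurons fall into nigral types, marked by Sox6 and Aldh1a1, and tegmental types, marked by Otx2, Calb1 and Slc17a6. Of 13 tegmental genes, 6 were at least 1.5-fold lower in nuclei with Lef1 and 0 higher, against 0.966% and 0.25% of all genes. Calb1, which encodes the calcium buffer calbindin, had 24.2 CPM with and 58.6 CPM without Lef1. Tacr3, the neurokinin 3 receptor, had 22.1 CPM with and 52.1 CPM without, and Eya1 had 11.1 CPM with and 23.7 CPM without. Cbln4, a synaptic organiser, had 2.77 CPM with and 8.87 CPM without Lef1. The remaining 2 were Slc17a6, the vesicular glutamate transporter, at 19.4 CPM with and 33.6 CPM without, and Lpl at 1.88 CPM with and 6.23 CPM without.

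Of 15 genes marking subtypes in these same data, 8 were lower with Lef1 and 0 higher, against 0.966% and 0.25% of all genes. Since that list was taken from this series, it is no independent evidence. The 4 with the largest differences after the pseudocount included Sulf1 (14.6 CPM with, 40.3 CPM without), Sema5b (21.02 CPM with, 55.5 CPM without), Glra2, a glycine receptor subunit (20.9 CPM with, 47.4 CPM without), and the fourth was Htr2c, a serotonin receptor (94.8 CPM with, 200 CPM without). Of 9 nigral genes, 1 was higher, Kcns3, a potassium channel subunit, at 158 CPM with and 99.6 CPM without Lef1. Sox6 had 615 CPM with and 416 CPM without, a ratio of 1.48 (1.44 to 1.52), while Aldh1a1 had 65.9 CPM with and 101 CPM without, a ratio of 0.654. The nigral genes thus did not all lie on the same side.

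Some of the genes that the mutant gained were higher in nuclei with Lef1. All 18 genes of a list of such genes were at least 1.5-fold higher in mutant than in wt dopamine nuclei, which is how the list was made. Within the mutant, 3 of the 18 were 1.5-fold higher in nuclei with Lef1 and 0 lower, against 0.25% and 0.966% of all genes. By the counting intervals alone 13 lay above 1, 1 below and 4 included 1. The share of all genes with an interval above or below 1 is not given here, so nothing is read from the interval counts. Pax3, a paired box factor of the dorsal neural tube, had 148 CPM with and 91.5 CPM without Lef1. Hoxc5 had 158 CPM with and 98.4 CPM without, and Hoxc4 had 173 CPM with and 110 CPM without; both are body axis genes of the hindbrain and spinal cord. Hoxc4 and Hoxc5 are neighbours in 1 cluster with shared transcripts, so their counts may not be separate. After thinning, Hoxc4 was found in 52.5% (46.9% to 58.1%) of nuclei with Lef1 and 30.2% (28.4% to 32.0%) of nuclei without, and Pax3 in 45.3% (39.7% to 50.9%) with and 27.2% (25.5% to 29.0%) without. The member below 1 was Gad2, an enzyme of GABA synthesis, at 57.5 CPM with and 75.4 CPM without Lef1 (ratio 0.763, 0.695 to 0.836). Onecut2 was near even, found in 51.9% with and 55.9% without (CPM ratio 1.01, 0.961 to 1.07), and so was Sim2, found in 18.0% with and 17.1% without.

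Tags of vascular cells also moved with the split. Of 9 endothelial and pericyte genes, 2 were higher in nuclei with Lef1: Flt1 at 12.8 CPM with and 5.03 CPM without, and Slco1a4 at 7.19 CPM with and 0.690 CPM without. In the same split 0.25% of all genes were higher and 0.966% lower. All 65 Slco1a4 UMIs in nuclei with Lef1 lay in 5 nuclei. The 9 genes summed to 31.6 CPM with and 10.9 CPM without Lef1, with none of the 9 at 0 in either. Without nuclei over any glial or vascular gate they summed to 18.0 CPM with and 10.7 CPM without, 1 of the 9 being at 0 in nuclei with Lef1. The 12 named subtype and gained genes kept their direction in every alternative that was run. They moved by less than their counting intervals without those nuclei, but 10 of the 12 moved by more with a split at 3 or more unthinned UMIs, 9 within 10000 to 30000 UMIs, 6 with a split at 1 unthinned UMI and 6 with equal weights.

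**Figure D3:**
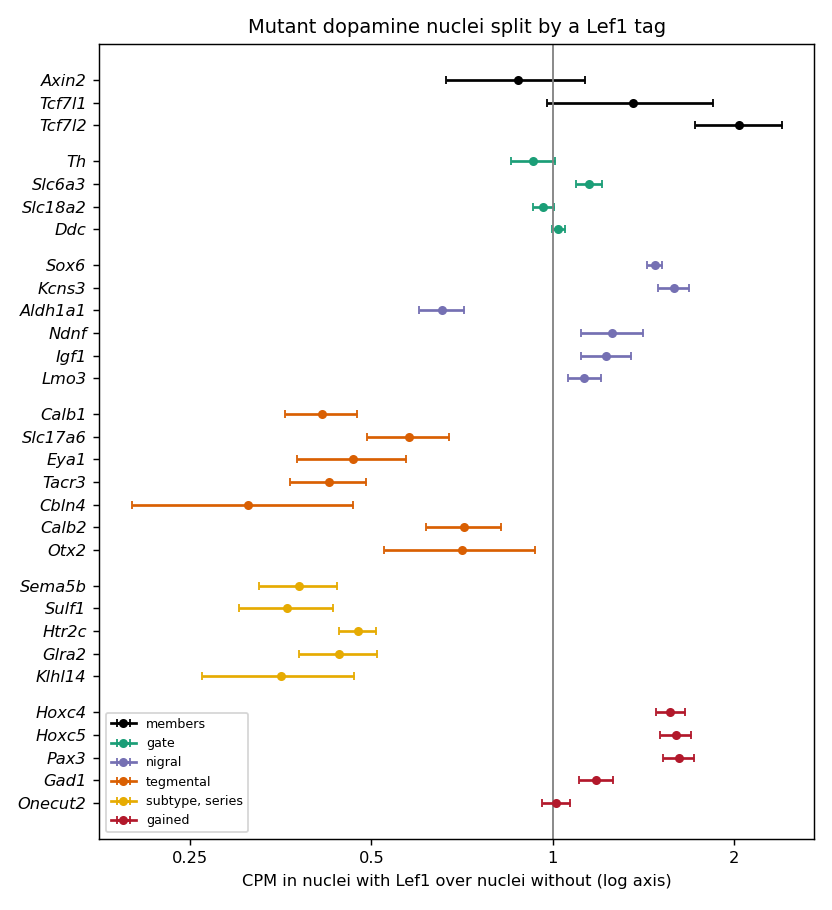
Ratio of CPM in mutant dopamine nuclei with a Lef1 tag over those without (log axis), for some genes of each group; points are ratios of summed counts and bars 95% exact intervals for counting error. Axin2 (0.875) and the 4 gate genes lie near 1, the tegmental and series subtype genes lie to the left, and Hoxc4, Hoxc5 and Pax3 lie to the right, near 1.6.

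The share of nuclei with Lef1 was next read along the level of the subtype genes. In mutant dopamine nuclei thinned to 5000 UMIs, Lef1 was found in 4.56% (3.23% to 6.23%) of nuclei with no Sox6 and in 19.3% (16.1% to 22.8%) of nuclei with over 8 Sox6 UMIs per 10000. In between, the shares were 6.87%, 9.47%, 12.9% and 16.5% at up to 1, 1 to 2, 2 to 4 and 4 to 8 Sox6 UMIs per 10000. The level of Lef1 followed the same order, with 17.6, 19.6, 23.8, 28.5, 40.0 and 55.7 CPM. Along the sum of the 13 tegmental genes the order ran the other way, with 52.9 CPM in nuclei with none, then 49.6, 38.1 and 19.996 CPM, and 8.60 CPM in nuclei with over 4 UMIs per 10000. The nuclei without Sox6 were shallower, at a median of 12952 UMIs against 22110 UMIs in those with the most, which the thinning of the shares takes into account. In wt dopamine nuclei, between 0 and 3 nuclei per bin held Lef1 and no order was read.

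**Figure D4:**
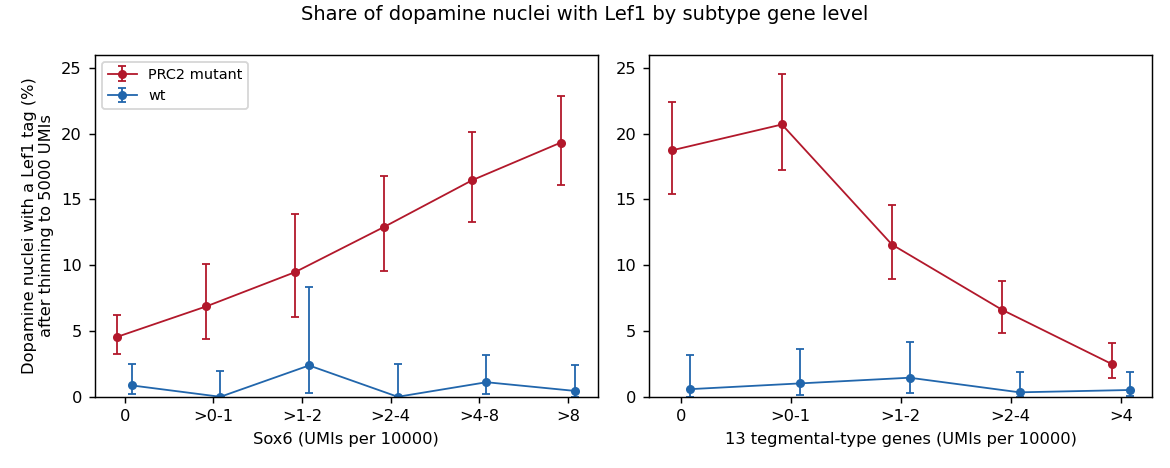
Share of dopamine nuclei with a Lef1 tag after thinning to 5000 UMIs, by the Sox6 level (left) and the summed level of 13 tegmental genes (right), in UMIs per 10000; bars are 95% exact binomial intervals. In the mutant library the share goes up with Sox6, to 19.3%, and down with the tegmental genes, to 2.48%, while the wt library has 3 or fewer nuclei with Lef1 in each bin.

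Splitting by Sox6 level separated some of these differences. Among nuclei with over 4 Sox6 UMIs per 10000, 187 held Lef1 and 852 did not. There Axin2 had 8.29 CPM with and 6.73 CPM without Lef1 (ratio 1.23, 0.858 to 1.73). Among nuclei with at most 4, 129 held Lef1 and 1617 did not, and Axin2 had 5.97 CPM with and 9.45 CPM without (ratio 0.632, 0.395 to 0.965). The Axin2 ratio thus lay on opposite sides of 1 at high and low Sox6, with wide intervals that overlap. Of the 13 tegmental genes, 12 had a ratio below 1 at high Sox6, all but Adcyap1, and 7 of them an interval below 1. At low Sox6 12 had a ratio below 1, all but Cck, and 9 of them an interval below 1. As no interval counts are given for all genes, nothing is read from these. Calb1 had ratios of 0.550 at high and 0.502 at low Sox6. Sema5b, from the list of subtype genes of this series, had 0.313 at high and 0.508 at low Sox6. Hoxc4 had a ratio of 1.19 (1.11 to 1.27) at high Sox6 and 1.97 (1.80 to 2.16) at low Sox6, and Pax3 had 1.25 (1.16 to 1.35) at high and 2.01 (1.82 to 2.20) at low Sox6. The Tcf7l2 excess was seen at low Sox6 (ratio 3.37, 2.72 to 4.16) and was 1.12 (0.840 to 1.47) at high Sox6.

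The genes most like Lef1 were ranked by Pearson's r of log2(1 + UMIs per 10000) over 2785 mutant dopamine nuclei, among 9630 genes with at least 500 UMIs. The nuclei share 1 library and differ in depth and subtype, so r is a description. The 10 highest were Zmat4 (0.368), Col25a1 (0.354), Nos1ap (0.345), Hoxc5 (0.345), Hoxc4 (0.340), Prkca (0.319), Cntn4 (0.317), Kcns3 (0.316), Ptpn5 (0.311) and Grin2c (0.309). Hoxc5 and Hoxc4 had 0 and 1 UMI in wt dopamine nuclei, while the other 8 had between 1003 and 61087. Axin2 had an r of -0.033 and stood at rank 8516, and Tcf7l2 had an r of 0.105 at rank 489.

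In wt dopamine nuclei the same split left 9 nuclei with Lef1 and 1251 without, too few to describe subtypes. Of the 9, 3 (33.3%) were over a glial or vascular gate, against 4.56% of the nuclei without Lef1. The 9 endothelial and pericyte genes summed to 377 CPM with and 10.4 CPM without Lef1, 1 of the 9 being at 0 with Lef1, and all 7 microglial markers were at 0 there. After gated nuclei were left out, these 9 vascular genes summed to 92.2 CPM with and 8.50 CPM without Lef1. The 92.2 CPM came from 18 UMIs over 6 nuclei, with 5 of the 9 genes at 0. Of 7 oligodendrocyte genes 5 were past 1.5-fold upwards, and the 7 summed to 597 CPM with and 229 CPM without Lef1, or 702 CPM with and 150.2 CPM without after gated nuclei were left out. Axin2 had 7 UMIs in those 9 nuclei, and a thinned tag in 0 of them, which allows a share of up to 33.6% by the exact interval. Over all genes 13.9% were past 1.5-fold upwards and 17.3% downwards in this split, so no gene count is read from it.

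Mutant other nuclei were split by a Lef1 tag in the same way, and were not compared directly with the dopamine nuclei with Lef1. Of these nuclei, 55 held Lef1 after thinning and 838 did not, with medians of 20423 UMIs with and 17293.5 UMIs without, and 10.9% with and 7.88% without were over a glial or vascular gate. Tcf7l2 had 403 CPM with and 62.5 CPM without Lef1, a ratio of 6.45 (5.82 to 7.15), and was the 1 other member past 1.5-fold; over all genes 3.5% were higher and 7.34% lower by that measure. Axin2 had 14.2 CPM with and 10.5 CPM without (ratio 1.36, 0.810 to 2.16), from 20 UMIs with and 184 UMIs without. Of the 4 gate genes 1 was higher with Lef1 and 0 lower. It was Slc6a3, at 23.5 CPM with and 9.01 CPM without (ratio 2.61, 1.73 to 3.81). Of the 16 other dopamine genes 0 were higher and 5 lower. Of the 18 gained genes 1 was higher with Lef1, Sim2, and the 3 lower ones were the GABA markers Gad1, Gad2 and Slc32a1, Gad2 at 57.0 CPM with and 152 CPM without. Markers of other cell types moved with this split. Of 8 measured endothelial and pericyte genes, 4 were higher with Lef1, and all 9 summed to 103 CPM with and 13.2 CPM without. Of 7 astrocyte genes 2 were higher, Slc4a4 at 195 CPM with and 62.9 CPM without and Fgfr3 at 7.83 CPM with and 3.48 CPM without. The 7 summed to 239 CPM with and 93.3 CPM without, and Slc4a4 made up most of both sums. Aqp4 (ratio 0.531) and Aldh1l1 (ratio 0.657) lay below 1, with intervals that include 1. The 5 oligodendrocyte precursor genes summed to 32.0 CPM with and 59.0 CPM without, and the 7 oligodendrocyte genes to 257 CPM with and 303 CPM without. Without nuclei over any glial or vascular gate, the vascular genes summed to 9.96 CPM with and 12.4 CPM without, with 4 of the 9 at 0 in nuclei with Lef1. The astrocyte genes then summed to 133 CPM with and 43.9 CPM without, with Gja1 and Fgfr3 at 0 in nuclei with Lef1. The oligodendrocyte genes changed direction, at 183.8 CPM with and 119.8 CPM without (ratio 1.53, 1.34 to 1.75). The precursor genes were near even (ratio 0.947, 0.675 to 1.297), with 3 of the 5 at 0 in nuclei with Lef1. The Tcf7l2 ratio was 6.60 (5.92 to 7.35) in those nuclei, from 49 nuclei with and 772 without Lef1.

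The rest of the Wnt pathway was followed through 6 lists of ligands, receptors, secreted inhibitors, cytoplasmic components, nuclear partners and targets, with 98 genes in all, of which 86 had at least 10 UMIs. In mutant dopamine nuclei 3 of the 86 were at least 1.5-fold higher than in wt and 0 were lower, against the 1.99% and 1.46% of all genes given above. With a pseudocount of 1 CPM these counts were 6 higher and 3 lower. More of all genes also passed at that setting, as counted in the last section, so nothing is read from this rise. Wnt5a, a ligand that mostly acts without beta-catenin, had 42.9 CPM in mutant and 12.8 CPM in wt dopamine nuclei, a ratio of 3.36 (3.05 to 3.70). Lgr5, a receptor for R-spondins, had 14.6 CPM in mutant and 2.996 CPM in wt dopamine nuclei, a ratio of 4.89 (4.04 to 5.97). Ccnd1, the cyclin D1 gene and a target of the pathway in many cell types, had 5.46 CPM in mutant and 1.32 CPM in wt dopamine nuclei, a ratio of 4.13 (3.09 to 5.63).

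The core of the pathway was near even. Ctnnb1 had 47.8 CPM in mutant and 43.9 CPM in wt dopamine nuclei, Apc 483 CPM in mutant and 460 CPM in wt, Axin1 69.4 CPM in mutant and 60.5 CPM in wt, and Gsk3b, the kinase that marks beta-catenin for destruction, 307 CPM in mutant and 263 CPM in wt. Among 11 measured targets 1 was higher, Ccnd1, and the median log2 ratio of the list was 0.04, against 0.02 over all genes. In the split by Lef1 in mutant dopamine nuclei, 0 of the 82 measured genes of the 6 lists were 1.5-fold higher and 0 lower, where 0.25% of all genes were higher and 0.966% lower, so the count is near the background. Wnt5a had 51.2 CPM with and 41.7 CPM without Lef1, Lgr5 had 18.8 CPM with and 14.1 CPM without, and Ccnd1 had 5.75 CPM with and 5.40 CPM without.

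**Figure D5:**
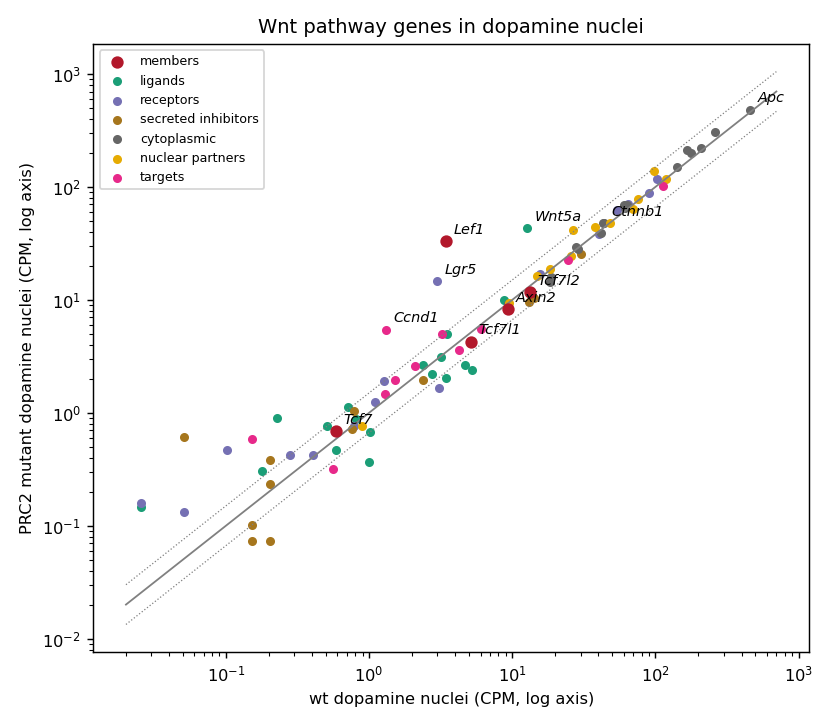
Levels of the 5 members and of 86 Wnt pathway genes in mutant (vertical) and wt (horizontal) dopamine nuclei, in CPM on log axes; the solid line marks equal levels and the dotted lines a 1.5-fold difference without pseudocount. Lef1, Wnt5a, Lgr5 and Ccnd1 lie above the lines, and Axin2 and Ctnnb1 lie between them.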

How the data were processed

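Per the labels' protocols, midbrain tissue of adult mice gave nuclei that were collected by FACS, and RNA tags were captured with the 10x Single Cell 3' chemistry (v3). The authors deposited 1 table of UMI counts per gene and nucleus, not normalised, with 23481 genes and 5740 nuclei, and the start of a nucleus's name gives its genotype. Cell Ranger 3.1.0 and build mm10 are named in the submitters' processing notes with no role. Filters before deposit, and the counting of introns and strand, are not given in the sources used here.

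The members and gene lists were chosen with earlier results of these data known. Counts were summed per library and class and divided by the class total (CPM). List genes with at least 10 UMIs and other genes with at least 50 UMIs were compared as log2 ratios with a pseudocount of 5 CPM and a limit of 1.5-fold. Shares were read after thinning to 2000 UMIs and the Lef1 split after thinning to 5000 UMIs, without replacement. Gates in UMIs per 10000 were 20 for oligodendrocytes, 10 for precursors, astrocytes, microglia and vascular cells, and 5 for GABA and glutamate neurons. Genes were named if they were members, gate genes, core Wnt genes, the 4 largest past 1.5-fold in a list and direction, or the 10 most like Lef1; Sox6, Aldh1a1, Slc17a6, Lpl, En1, Lmx1a, Pitx3, Drd2, Kcnj6, Gad2, Onecut2, Sim2, Adcyap1, Cck, the shares by gene, and the genes of the split of other nuclei were added after their values were seen. No doublet caller was run, and nuclei over 60000 UMIs were left out in an alternative. The lanes are not replicates, so nothing was tested, and the calculations were checked on simulated counts. Promoter sequences came from RefSeq GRCm38.p6. Python 3.11.15, numpy 2.4.6, scipy 1.17.1, pandas 2.3.3 and matplotlib 3.10.9 were used.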

Additional observations from a re-analysis of the deposited data

Results flagged for a closer look

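Tcf7l2 lay on opposite sides of 1 in the 2 classes of nuclei: the mutant over wt ratio was 0.889 in dopamine nuclei and 1.21 in other nuclei. In other nuclei the ratio was 0.907 with a class limit of 10 UMIs per 10000 and 0.747 with nuclei weighted equally, which puts both classes below 1. The difference between the classes was not tested, as each genotype was 1 library.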

How the results depend on the processing

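No paired analysis was possible because each genotype was 1 library and its lanes are merged in the table. Ratios below are mutant over wt. The Lef1 ratio in dopamine nuclei was 11.6 without nuclei over a glial or vascular gate and 4.21 with nuclei weighted equally; in other nuclei these were 3.31 and 1.76. With a gate of 10 UMIs per 10000, Tcf7l1 in dopamine nuclei turned to 1.00, Tcf7l2 in dopamine nuclei was 0.661 and Tcf7l2 in other nuclei turned to 0.907. With nuclei weighted equally, Tcf7l1 in dopamine nuclei was 0.540, Tcf7l2 in dopamine nuclei 0.606, and Tcf7l2 in other nuclei turned to 0.747; without gated nuclei the last was 1.77. The causes were not tested.

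Shares of dopamine nuclei rose with the depth kept. Thinned to 5000 UMIs, Lef1 was in 11.3% of mutant nuclei, Tcf7l1 in 1.83% of mutant and 2.14% of wt, Tcf7l2 in 3.16% and 3.73%, and Axin2 in 4.38% and 4.76%. Without thinning, shares in mutant and wt were 28.5% and 2.20% for Lef1, 1.36% and 1.67% for Tcf7, 5.6% and 7.27% for Tcf7l1, 7.62% and 10.2% for Tcf7l2, and 16.3% and 22.0% for Axin2.

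With a pseudocount of 1 CPM, 6 of 86 Wnt list genes were higher and 3 lower, and of all 16324 genes 701 were higher and 592 lower. At 2-fold, 156 of all genes were higher and 49 lower.

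In the Lef1 split, nuclei of 10000 to 30000 UMIs gave 0.636 for Axin2, 1.46 for Tcf7l2 and 0.902 for Slc18a2. At least 3 unthinned UMIs against 0 gave 2.46 for Tcf7l2, 0.821 for Th, 1.06 for Slc6a3, 0.874 for Slc18a2 and 0.9496 for Ddc, and at least 1 gave 1.08 for Slc6a3, 0.877 for Slc18a2 and 0.987 for Ddc. The gate of 10 gave 1.10 for Slc6a3 and 0.992 for Ddc, and equal weights gave 0.922 for Slc18a2. The 4 barcodes found in both libraries and nuclei over 60000 UMIs changed none of the 10 member ratios beyond their intervals. The alternatives without shared barcodes, and without gated nuclei for the Wnt lists and for the Lef1 split of other nuclei, were chosen after seeing the data.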
